A study of Homo sapiens with 6 samples.

Results

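Untreated 22Rv1 prostate cancer cells lost much of the RNA of RCAN3, ELF5, GFRA1, CLDN11, PROS1, FAM189A1 and BTN3A2 over 6 weeks in culture. Cells that were given phleomycin over the same weeks held levels of all 7 genes in between. These 7 genes, of 29804 gene symbols in the count table, were picked by name from among the strongest falls in age matched (AM) against parental (WT) cells. Their fall in AM cells is therefore the reason they are listed and is described here without a test. All 7 passed the filter on low counts, as did 14672 symbols in all.

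22Rv1 is an established epithelial line from a prostate carcinoma, and all samples are of this line with its genotype labelled WT. The WT group (2 libraries) was untreated and taken at time 0, and the AM group (2 libraries) was grown untreated for 6 weeks. Cells of the 6WP group (2 libraries) were also grown for 6 weeks and received 1 µg/ml of phleomycin, a radiomimetic that breaks DNA, on week days, washed off after each short exposure. Each group is 1 cell line grown in dishes, the replicates are labelled biological without saying what was kept separate, and p-values measure only the spread between these libraries. WT and AM cells differ in the date of harvest as well as in time in culture, and the effects of date and culture cannot be told apart.

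The listed genes belong to different systems. RCAN3 encodes a regulator of calcineurin, the calcium-activated phosphatase that sends NFAT transcription factors to the nucleus. ELF5 is an ETS family transcription factor of glandular and secretory epithelium, best known from the mammary gland. GFRA1 is the membrane-anchored co-receptor through which GDNF engages the kinase RET. CLDN11 is a claudin, a strand-forming protein of tight junctions known from myelin and Sertoli cells. PROS1 encodes protein S, an anticoagulant cofactor of activated protein C that also serves as a ligand of the TAM receptors TYRO3 and MERTK. BTN3A2 is a butyrophilin, a membrane protein of the immunoglobulin superfamily whose close relatives take part in the recognition of phosphoantigens by gamma-delta T cells. FAM189A1, now named ENTREP2, encodes a membrane protein about which little is established.

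The genes lie on 6 chromosomes (positions from GENCODE on GRCh38, the build of the authors' alignment). RCAN3 is on the plus strand at chr1:24502351-24541040, ELF5 on the minus strand at chr11:34478791-34525193 and GFRA1 on the minus strand at chr10:116056925-116276803. CLDN11 on the plus strand (chr3:170418868-170454733) and PROS1 on the minus strand (chr3:93873051-93980003) share a chromosome but are far apart. FAM189A1 is on the minus strand at chr15:29120252-29570979 and BTN3A2 on the plus strand at chr6:26365159-26378320. The start regions of the genes are of unlike kinds. In the 250 bases upstream of the start nearest to the canonical transcript's (RefSeq, GRCh38.p14), FAM189A1 had 43 CG dinucleotides, RCAN3 30, CLDN11 29, GFRA1 23, PROS1 9, BTN3A2 4 and ELF5 2, against a median of 11 over 35116 promoters. Those of PROS1 and FAM189A1, which kept much of their expression in 6WP cells, and of BTN3A2 and ELF5, which kept the least, are shown 5′ to 3′ on the gene's strand with CG dinucleotides in capitals. The ELF5 sequence belongs to a start that lies 2070 bases from that of the canonical transcript.
PROS1, chr3:93973897-93974146: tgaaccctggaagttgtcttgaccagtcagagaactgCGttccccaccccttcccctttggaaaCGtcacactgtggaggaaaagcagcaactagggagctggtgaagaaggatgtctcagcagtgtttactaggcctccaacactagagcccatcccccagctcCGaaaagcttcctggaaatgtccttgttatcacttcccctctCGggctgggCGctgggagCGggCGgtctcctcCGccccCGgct
FAM189A1, chr15:29570980-29571229: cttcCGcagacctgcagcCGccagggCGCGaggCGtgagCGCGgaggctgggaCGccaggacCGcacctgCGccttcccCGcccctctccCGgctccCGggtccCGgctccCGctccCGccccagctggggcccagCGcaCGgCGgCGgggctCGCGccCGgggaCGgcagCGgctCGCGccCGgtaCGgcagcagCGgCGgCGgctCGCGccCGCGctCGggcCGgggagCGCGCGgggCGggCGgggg
BTN3A2, chr6:26364948-26365197: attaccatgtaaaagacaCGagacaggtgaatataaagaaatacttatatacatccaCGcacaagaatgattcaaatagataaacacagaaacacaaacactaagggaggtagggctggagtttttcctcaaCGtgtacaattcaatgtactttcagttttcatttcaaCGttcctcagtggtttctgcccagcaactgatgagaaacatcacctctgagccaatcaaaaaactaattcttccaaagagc
ELF5, chr11:34511725-34511974: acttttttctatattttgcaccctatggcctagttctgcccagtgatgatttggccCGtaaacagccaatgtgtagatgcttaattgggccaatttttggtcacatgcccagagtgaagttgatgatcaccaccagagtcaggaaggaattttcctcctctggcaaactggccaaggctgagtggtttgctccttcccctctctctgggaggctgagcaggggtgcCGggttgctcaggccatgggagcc

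Short motifs were counted on both strands of the same 250 bases. GGAA, the core bound by ETS factors, was present in all 7 promoters, with 8 copies in PROS1 and 2 to 4 in the others, but 92.7% of all promoters held it. GGGCGG, the GC box, occurred in FAM189A1 (4 copies), RCAN3 (3), CLDN11 (3) and PROS1 (2) and in 42.6% of all promoters. TATAAA was found once, in BTN3A2, and in 10.7% of all promoters. Neither CACGTG, the E-box, nor TGACGTCA, the cyclic AMP response element, was present in these 7 windows, and 6.34% and 1.65% of all promoters held them. Among the other 781 genes lower in AM than WT cells by at least 1 log2 unit, 592 (75.8%) had a promoter in the table, too few for a full check. In 104 of them with at most 4 CG dinucleotides a median of 67.3% of the log2 fall was absent in 6WP cells, against 70.2% in the other 488.

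The raw counts behind the values ranged from 15 for GFRA1 in an AM library to 1165 for RCAN3 in a WT library, in libraries of 21222201 to 35311945 counts. A level of 3 counts corresponded to at most 0.138 CPM, a floor that covers counting error only, and every value of the 7 genes lies above it. Expression is given in TMM-normalized CPM (counts divided by the scaled library total), with the SD over 2 libraries. Prostate luminal markers were present in every library, with all 10 of the list above 3 counts and summed levels of 1934 to 3455 CPM. Of these 10, 6 passed the edgeR test in AM against WT cells. Markers of endothelium were at or below 3 counts in every library (4 of 4). The leukocyte list summed to 3.35 to 4.004 CPM, with PTPRC and CD3E at 0 throughout. The fibroblast list of 8 summed to 17.1 and 21.0 CPM in WT libraries, 2.27 and 3.40 in AM libraries and 3.42 and 5.57 with phleomycin. Of this list 5 genes were tested, and 2 passed the edgeR test in AM against WT cells. Most of the difference was in LUM and DCN, while COL1A2 and FAP stayed at or below 3 counts. COL3A1 (0.848 and 0.643 CPM in WT, 1.77 and 0.740 in 6WP libraries) overlapped between these groups. So did PDGFRB (0.447 and 0.276 in WT, 0.506 and 0.317 in 6WP libraries). What this list contributed to the other results was not tested. In bulk RNA, fewer cells that express a gene and less RNA per cell cannot be told apart.

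For RCAN3, WT libraries gave 45.7 and 53.5 CPM, AM libraries 8.61 and 9.04, and 6WP libraries 23.9 and 30.4. No library of any group overlapped with another group, and the 6WP libraries lay between the rest. Its log2 difference was -2.49 (standard error 0.17) in AM against WT cells, 1.62 (standard error 0.16) in 6WP against AM cells and -0.87 (standard error 0.15) in 6WP against WT cells. The mean level in AM cells was thus 17.8% of that in WT cells, and in 6WP cells 54.8%. Exons of RCAN3AS and NCMAP-DT on the opposite strand overlap 17.5% of the exon bases of RCAN3, so its counts depend on the strand setting of the counting, which is not given in the sources used here.

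ELF5 stood at 21.1 and 21.6 CPM before culture (WT), at 3.23 and 4.004 in AM libraries and at 6.73 and 6.13 in those of 6WP. The 6WP libraries were above both AM libraries but far below both WT libraries, so that this transcription factor stayed low with and without phleomycin. Relative to the WT mean, AM cells kept 17.0% and 6WP cells 30.1%. As a log2 difference, 6WP cells departed from AM cells by 0.82 (standard error 0.18) and from WT cells by -1.73 (standard error 0.17), whereas AM minus WT was -2.55.

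GFRA1 showed the largest fall among the 7 genes and had the lowest counts. WT libraries held 8.93 and 8.73 CPM (200 and 190 counts), AM libraries 0.646 and 0.854 CPM (15 and 29 counts) and 6WP libraries 3.15 and 3.59 CPM (87 and 102 counts). AM cells kept 8.49% of the WT level and 6WP cells 38.2%. The log2 difference of -3.53 (standard error 0.25) in AM against WT cells ranked 15th from the bottom of all tested genes. Between 6WP and AM cells the level differed 4.49-fold, also the largest such ratio among the 7. ENSG00000285587 on the opposite strand overlaps 3.95% of its exon bases.

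CLDN11, the tight junction gene, had 27.9 and 31.2 CPM at the start. AM libraries fell to 6.72 and 7.01 CPM, and 6WP libraries gave 17.4 and 20.7. The groups did not overlap, and on the log2 scale the 6WP libraries sat nearer to WT than to AM cells. Its mean was 23.2% of the WT mean without and 64.3% with phleomycin. Of the 100-base stretches in its canonical transcript, 18.5% also occur in the overlapping same-strand locus ENSG00000285218, so a read of this length from there cannot be assigned to CLDN11 alone.

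PROS1 kept the highest share of its WT level in 6WP cells, closely followed by FAM189A1 and CLDN11. WT libraries reached 39.0 and 34.3 CPM, those of AM 10.0 and 8.89, and those of 6WP 26.9 and 24.4, again without overlap. AM cells had 25.8% of the WT level and 6WP cells 69.9%. The log2 difference was -1.96 (standard error 0.14) in AM and -0.52 (standard error 0.14) in 6WP cells, each against WT cells. Its pseudogene PROS2P shares 1.44% of the 100-base stretches.

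FAM189A1 gave the tightest replicates in 6WP cells, at 13.96 and 13.99 CPM. Expression started at 20.0 and 20.8 CPM (WT) and was 6.07 and 5.86 CPM after culture alone (AM), so that no groups overlapped. AM cells had 29.2% of the WT level, the smallest fall of the 7, and 6WP cells 68.5%.

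BTN3A2, like ELF5, was low in both groups grown for 6 weeks. WT libraries contained 17.8 and 15.0 CPM, AM libraries 2.93 and 2.36, and 6WP libraries 5.71 and 5.07. Relative to WT, AM cells retained 16.1% and 6WP cells 32.9%. The log2 difference in 6WP cells was 1.04 (standard error 0.21) against AM and -1.60 (standard error 0.19) against WT cells. BTN3A1, BTN3A3 and PIGX transcripts contain 7.18% of its 100-base stretches, so part of its reads could have been divided among these genes.

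**Figure D1:**
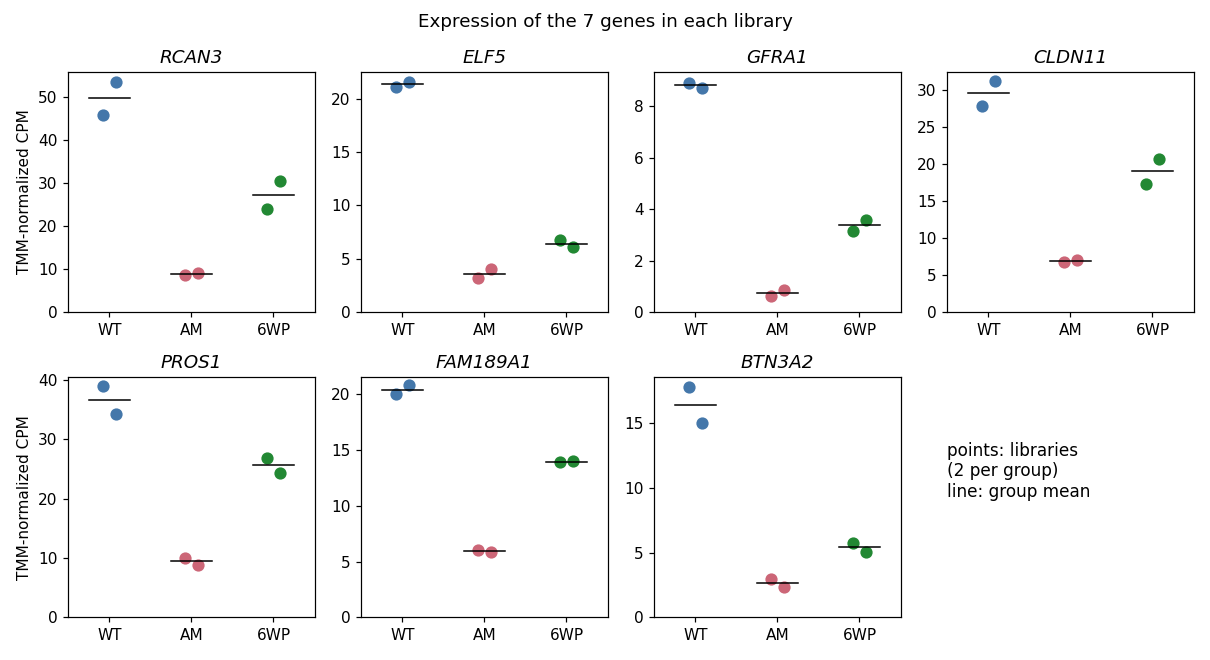
Expression of the 7 genes in TMM-normalized CPM (vertical axes, linear from 0) in WT, AM and 6WP cells, with 1 point per library and a line at the mean of 2. In every panel the AM libraries are lowest, the WT libraries highest and the 6WP libraries in between, closest to AM in ELF5 and BTN3A2.

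Compared per kilobase of annotated exon, PROS1 (6.95 CPM per kb), RCAN3 (6.95) and CLDN11 (6.84) had the highest levels in WT cells. These lay closer together than their replicate SDs of 0.546 to 0.777 CPM per kb and have no order. ELF5 (4.34), FAM189A1 (3.52), BTN3A2 (2.33) and GFRA1 (0.829) followed, each below the one before by more than the SDs. In 6WP cells PROS1 (4.86 CPM per kb) and CLDN11 (4.398) were not separated beyond their SDs of 0.342 and 0.539. There ELF5, which exceeded FAM189A1 in WT cells, lay below it, with levels of 1.31 and 2.41 CPM per kb. The length used was that of all annotated exons together, for example 4913 bases in ELF5 and 7138 in RCAN3. Their canonical transcripts have 2317 and 6863 bases, so the order of the genes depends on the length chosen.

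The question put to these genes was whether cells under phleomycin keep or lose each of them. For all 7 genes both 6WP libraries lay above both AM and below both WT libraries. This order was found in 5.45% of all tested genes. The choice of members had fixed WT above AM. Of the other 781 genes at least 1 log2 unit lower in AM cells at an adjusted p-value under 0.05, 398 (51.0%) showed this order. The members were picked from the top of such falls, with log2 differences of -1.77 to -3.53. A wide gap and tight replicates leave more room for values in between. The order in all 7 may thus follow in part from the choice, and it is no test.

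Differences of 6WP from WT or from AM cells alone share libraries with the choice of the genes and carry no p-value here. The difference between 6WP cells and the midpoint of WT and AM cells was tested instead, since its error is nearly uncorrelated with that of AM minus WT. The correlation computed from the fitted standard errors was -0.0520 for PROS1, between -0.0536 and -0.0867 for the others apart from GFRA1, and -0.206 for GFRA1, which had the fewest AM counts. Choosing genes low in AM cells therefore favoured values above the midpoint slightly, and most for GFRA1. The members also ranked high by p-value in AM against WT cells, which favours genes with a small estimated spread. The test against the midpoint used the same estimates of spread. Its p-values may therefore be too small and its intervals too narrow for these genes, which was not assessed. On the log2 scale, a difference from the midpoint above 0 lies nearer to WT and one below 0 nearer to AM cells. In linear CPM the 6WP means of RCAN3 and GFRA1, like those of ELF5 and BTN3A2, lay nearer to AM cells. With edgeR's quasi-likelihood method and Benjamini-Hochberg adjustment, 10.1% of all tested genes differed from the midpoint at an adjusted p-value under 0.05, 5.55% above and 4.55% below it. Of the 7 members, 1 was called above the midpoint and 0 below. At an unadjusted p-value under 0.05 there were 4 above and 1 below, and the Wald test of DESeq2 called 1 above and 0 below after adjustment.

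PROS1 was the gene called, at 0.46 above the midpoint on the log2 scale (95% interval 0.19 to 0.73, edgeR adjusted p = 0.0474). This call was marginal. Its adjusted p ranged from 0.00592 to 0.180 under other settings, and from 0.138 to 0.180 when any WT or AM library was left out. The next genes were CLDN11 at 0.42 (95% interval 0.12 to 0.71, adjusted p = 0.0729, edgeR), RCAN3 at 0.38 (0.07 to 0.69, adjusted p = 0.107) and FAM189A1 at 0.34 (0.07 to 0.61, adjusted p = 0.102). GFRA1 also had a value of 0.38, with a wider interval of -0.08 to 0.83 (adjusted p = 0.240, edgeR). On the other side of the midpoint were ELF5 at -0.46 (95% interval -0.80 to -0.11, adjusted p = 0.0909, edgeR) and BTN3A2 at -0.28 (-0.68 to 0.11, adjusted p = 0.309). None of these 6 passed the adjusted test, and the unadjusted intervals of GFRA1 and BTN3A2 included 0. The 6WP libraries differed in how far they lay from the midpoint. Without replicate 2 of the 6WP cells RCAN3 was at 0.16 (adjusted p = 0.342, edgeR), CLDN11 at 0.26 (0.153) and GFRA1 at 0.24 (0.474). Without replicate 1 RCAN3 was at 0.53 (adjusted p = 0.00250, edgeR), CLDN11 at 0.53 (0.00383) and ELF5 at -0.54 (0.0203). A group left with 1 library is assumed to vary like the others, and 6WP libraries varied more than those of WT and AM (median SD of log2 CPM 0.196, 0.0854 and 0.0911), so these p-values rest on the tighter groups.

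**Figure D2:**
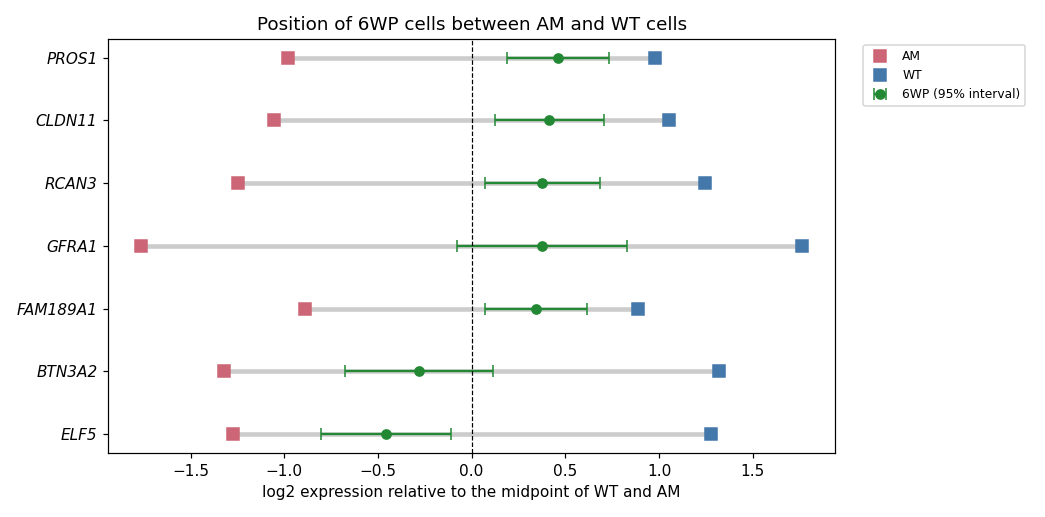
Position of 6WP cells (circles with 95% intervals) between AM and WT cells (squares) for each gene, in log2 units from the midpoint of WT and AM (dashed line). PROS1, CLDN11, RCAN3, GFRA1 and FAM189A1 lie to the WT side at 0.34 to 0.46, and BTN3A2 and ELF5 to the AM side.

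Expressed as the share of the log2 fall that was absent in 6WP cells, the genes formed an order from PROS1 (73.6%), CLDN11 (69.7%), FAM189A1 (69.2%), RCAN3 (65.2%) and GFRA1 (60.6%) to BTN3A2 (39.3%) and ELF5 (32.1%). Among the other 781 genes lower in AM cells the median of this share was 70.5%, with quartiles of 51.3% and 93.0%. ELF5 and BTN3A2 were thus below the lower quartile of these 781 genes, and the other 5 lay within the quartiles. The 781 genes include falls as small as 1 log2 unit, whereas ELF5 and BTN3A2 differed by -2.55 and -2.64. The share divides by the size of the fall and uses the AM libraries in both terms, so it is less certain for small falls. Of the 781 genes, 112 (14.3%) were called above the midpoint and 12 (1.54%) below it, while 657 (84.1%) were not called. The median difference from the midpoint was 0.38 over the members, 0.36 over the 781 genes and 0.03 over all tested genes.

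**Figure D3:**
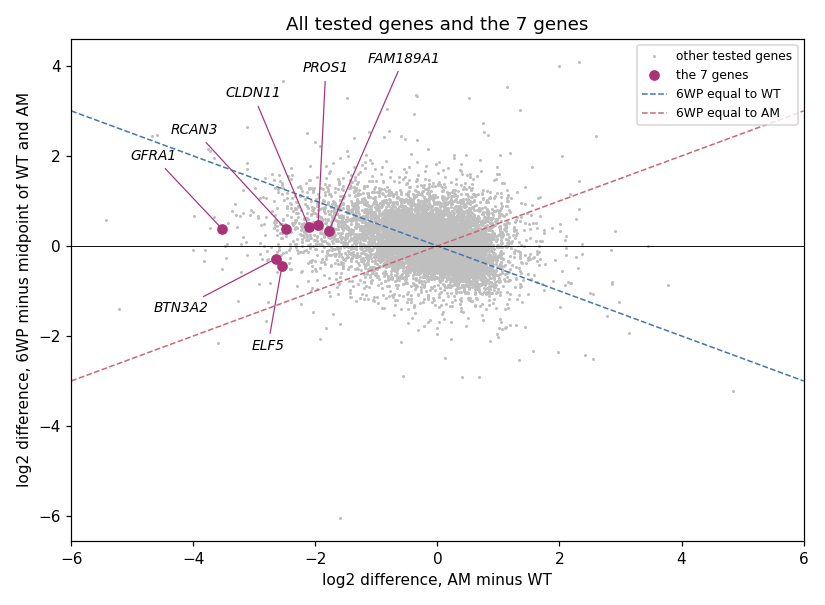
Log2 difference of 6WP cells from the midpoint of WT and AM cells against the log2 difference of AM minus WT cells for all tested genes (grey) and the 7 genes (purple). Dashed lines mark where 6WP would equal WT or AM cells, and all 7 genes fall between these lines on the left.

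By p-value of AM against WT cells, the members took ranks 1, 2, 3, 5, 6, 8 and 11 among falling genes. The genes between them, named after their values were seen, were RP11-669N7.2 (23.98, 4.61 and 14.4 CPM in WT, AM and 6WP cells), VIM (57.0, 21.2 and 88.3), TNFRSF19 (12.2, 1.82 and 2.69) and CTGF (15.0, 1.37 and 3.77). VIM, an intermediate filament gene, was the only one of these above its WT mean in 6WP cells. Just after FAM189A1 came TFPI, WLS and SH3BGRL, at ranks 12 to 14.

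The likeness of patterns was measured as the root mean square difference of centred log2 CPM over the 6 libraries. Among the members, PROS1 and FAM189A1 were closest (0.129 log2 units), and GFRA1 and FAM189A1 were farthest apart (0.699). Over all tested genes, the nearest to RCAN3 were RP11-669N7.2 (0.0783) and HOXB6 (0.125), and the same genes were nearest to CLDN11, at 0.117 and 0.0733. TMPRSS4 was closest to FAM189A1 (0.0726), LOC101448202 and FAHD2B to PROS1 (0.0881 and 0.118) and NCMAP and BEND7 to GFRA1 (0.245 and 0.343). ELF5 was most like MSRB3 (0.207) and BTN3A2 (0.209). BTN3A2 was itself most like its relative BTN3A1 (0.107) and MLKL (0.149). To the mean profile of the members, SORBS2 (0.136), SUGCT (0.148), BAI3 (0.150), RP11-669N7.2 (0.158) and TSPAN7 (0.159) came closest.

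Neighbouring genes were taken by position, which the choice did not use, as the 3 nearest tested genes on each side of each member. Their values come from the same libraries and comparison as the choice, so they are not independent of it. In AM against WT cells, 17.7% of all tested genes were called and 9.93% were lower. Of the 42 neighbours, 10 (23.8%) were lower, 0 higher and 32 not called. Among these 10 were BTN2A2, BTN3A1 and BTN2A3P, relatives of BTN3A2 that are also counted in the butyrophilin list below. NCMAP lies 15.1 kb beyond RCAN3 and fell from 7.12 to 0.683 CPM (log2 difference -3.37, adjusted p = 0.00157, edgeR), with 3.78 CPM in 6WP cells. On the other side of RCAN3, NIPAL3 and STPG1 were lower by log2 differences of -0.97 (adjusted p = 0.00952) and -0.74 (adjusted p = 0.0168). Near ELF5, CAT, which encodes catalase, was lower by -0.61 (adjusted p = 0.00850). SKIL and TNIK fell around CLDN11 (-0.54 and -1.30), and KIAA1598 near GFRA1 (-0.63). In contrast, none of the 6 neighbours of PROS1 or the 6 of FAM189A1 passed in edgeR's test.

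BTN3A2 lies at 1 end of a cluster of 6 butyrophilin genes on chromosome 6. BTN3A1, at chr6:26402237-26415208, gave 8.39 and 8.68 CPM from WT, 1.64 and 1.12 from AM and 3.07 and 2.75 from 6WP libraries. Its log2 difference was -2.65 in AM against WT (standard error 0.25, adjusted p = 0.00210, edgeR), 1.10 in 6WP against AM (adjusted p = 0.0225) and -1.55 in 6WP against WT cells (adjusted p = 0.0175). In 6WP libraries BTN3A2 and BTN3A1 were both at 31.0% to 36.0% of their WT means. BTN2A2, which lies between them, did otherwise. It fell to 41.1% and 48.7% of the WT mean in AM cells (log2 difference -1.15, adjusted p = 0.00741) but was at 114% and 93.6% in 6WP cells (0.05 against WT, adjusted p = 0.889). The log2 difference from AM cells was 1.202 (standard error 0.17, adjusted p = 0.00546, edgeR). BTN3A3 and the pseudogene BTN2A3P also fell in AM cells, by -1.86 (adjusted p = 0.0157) and -1.71 (adjusted p = 0.0409), on 10 and 11 counts and on 5 and 5 counts in the AM libraries. BTN2A1, at the far end of the cluster, had 84.3% and 87.6% of its WT mean in AM cells (adjusted p = 0.326), a range that overlapped with the 6WP but not with the WT libraries. These genes are near-identical in places, and how the counting divided shared reads is not known.

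**Figure D4:**
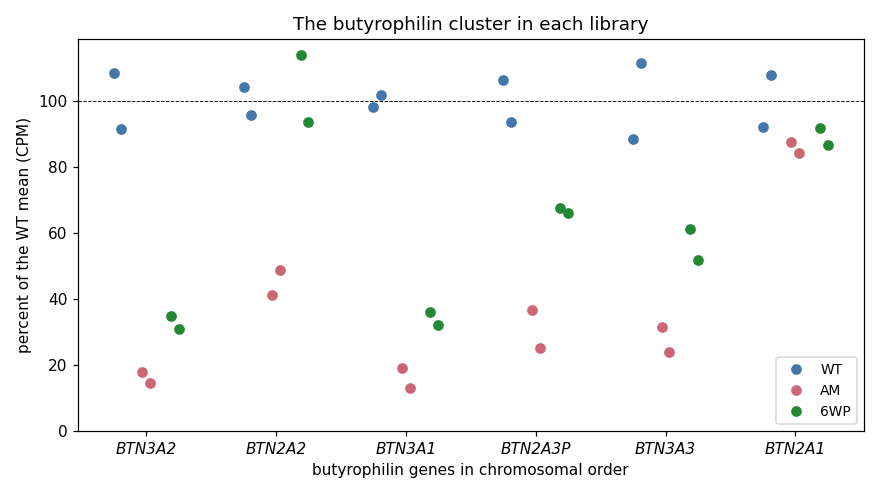
Expression of the 6 butyrophilin genes in chromosomal order as percent of each gene's WT mean (vertical axis, from 0), with 1 point per library. BTN3A2 and BTN3A1 are at 31.0% to 36.0% in 6WP cells, BTN2A2 is at 93.6% and 114%, and BTN2A1 differs little between groups.

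Families and pathways around each member were followed in lists of 134 other genes, of which 93 were tested. The lists were chosen with earlier results of these data known. A share above that of all genes is therefore no independent result. In AM against WT cells 22 of the 93 (23.7%) were lower and 2 (2.15%) higher, beside 9.93% and 7.74% of all tested genes. In 6WP against WT cells 3 were lower (3.23%) and 0 higher, beside 1.37% and 1.63% of all genes (3% in either direction). In 6WP against AM cells 10 were higher (10.8%, beside 11.7%) and 6 lower (6.45%, beside 9.68%), where 21.3% of all genes were called. The number of these calls depended on the libraries in the fit. In AM against WT cells, fewer of the 93 genes passed without any WT or AM library and more without a 6WP library. The cause was not tested.

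The butyrophilin list had 9 tested genes, 4 of them lower in AM cells, with a median log2 difference of -1.15 beside -0.00227 over all genes. These were the 4 cluster genes BTN3A1, BTN2A2, BTN3A3 and BTN2A3P. Among claudins and tight junction genes, 6 of 15 fell. CLDN1 went from 2.45 ± 0.113 to 0.362 ± 0.0963 CPM (SD, n = 2 each; log2 difference -2.77, adjusted p = 0.0103, edgeR) and was at 0.390 ± 0.296 in 6WP cells, where it was likewise below WT cells (-2.63, adjusted p = 0.0312). OCLN, which encodes occludin, fell by 0.80 (adjusted p = 0.0146), CLDN4 by 0.73 (adjusted p = 0.0343) and CLDN12 by 0.51 (adjusted p = 0.0263). CLDN3 and CLDN7, the common claudins of simple epithelium, did not pass, with -0.55 (adjusted p = 0.114) and -0.30 (adjusted p = 0.219), and CLDN7 in 6WP cells exceeded AM cells (0.60, adjusted p = 0.0343).

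In the calcineurin and NFAT list, 4 of 20 tested genes were lower in AM cells and 1 higher. NFATC2 fell from 2.27 ± 0.430 to 0.437 ± 0.131 CPM (log2 difference -2.33, adjusted p = 0.00737, edgeR), with 0.999 ± 0.0323 in 6WP cells. NFATC1 (-1.03, adjusted p = 0.0326) and NFATC4 (-0.91, adjusted p = 0.0304) fell as well, and both exceeded AM levels under phleomycin (1.13 and 1.19, adjusted p = 0.0208 and 0.0112). The kinase gene DYRK2 fell by 0.53 (adjusted p = 0.0195). RCAN3's relatives RCAN1 and RCAN2 did not share its fall, with log2 differences of 0.17 (adjusted p = 0.699) and -0.26 (adjusted p = 0.309).

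The pathway of PROS1 contained TFPI, the tissue factor pathway inhibitor, for which protein S is a cofactor. TFPI had 60.9 ± 3.03 CPM at time 0, 9.67 ± 2.52 after 6 weeks untreated and 33.2 ± 7.37 after 6 weeks with phleomycin. Its log2 difference was -2.66 in AM against WT (adjusted p = 0.00157, edgeR) and 1.79 in 6WP against AM cells (adjusted p = 0.00332). PROCR, the endothelial protein C receptor, fell by 1.24 (adjusted p = 0.0126). These were 2 of 9 tested genes. The receptors TYRO3 (0.13, adjusted p = 0.507) and MERTK (-0.34, adjusted p = 0.273) and the related ligand GAS6 (-0.25, adjusted p = 0.662) did not pass, and AXL reached at most 1 count in a library.

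Among ETS factors, 3 of 17 tested genes were lower in AM cells. ELK3 fell from 7.79 ± 0.542 to 1.40 ± 0.396 CPM (log2 difference -2.50, adjusted p = 0.00321, edgeR). It stood at 4.596 ± 1.02 in 6WP cells, a log2 difference from AM cells of 1.74 (adjusted p = 0.00729). ETV1 fell by 1.41 (adjusted p = 0.0118) and ELF1 by 0.56 (adjusted p = 0.0264). EHF, the epithelial ETS gene next to ELF5 on chromosome 11, had mean levels of 158 (WT), 110 (AM) and 106 CPM (6WP), differences from WT that did not pass (adjusted p = 0.0582 and 0.0899). ELF3 had 53.4 CPM in WT and 68.1 in AM cells (adjusted p = 0.120).

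For GFRA1, its partner RET was barely expressed, with WT, AM and 6WP means of 0.476, 0.247 and 0.321 CPM (AM against WT, adjusted p = 0.171, edgeR). The ligand gene GDNF had 14.3, 9.61 and 16.5 CPM and was higher in 6WP than in AM cells (0.78, adjusted p = 0.0295, edgeR). Of 13 tested genes of this list, the sorting receptor gene SORL1 (-1.15, adjusted p = 0.00768) and the adaptor gene GAB1 (-0.96, adjusted p = 0.0117) were lower and the adaptor gene DOK4 (0.75, adjusted p = 0.00884) was higher in AM cells. In the list of FAM189A1, its relative FAM189B had 93.7, 90.3 and 102 CPM (AM against WT, adjusted p = 0.783), and FAM189A2 reached 3 counts at most. The ubiquitin ligase gene NEDD4L fell from 165 ± 0.610 to 118 ± 1.53 CPM in AM cells (-0.48, adjusted p = 0.0167, edgeR). In 6WP cells it was lower still, at 68.8 ± 1.45 CPM (-1.26 against WT, adjusted p = 0.00338).

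**Figure D5:**
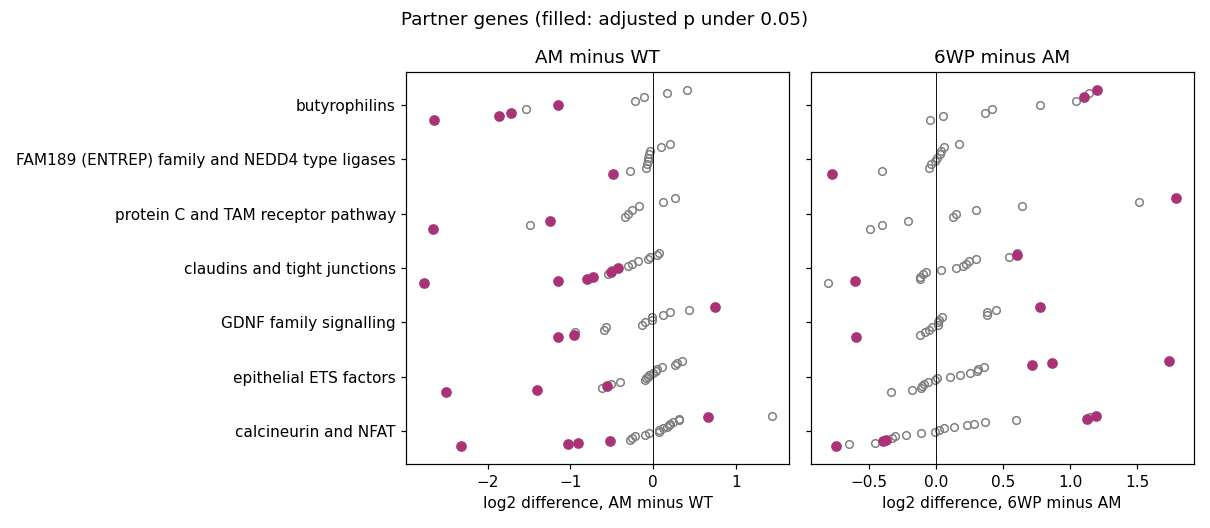
Log2 differences of the tested partner genes, by list, in AM minus WT (left) and 6WP minus AM (right), with filled points for an adjusted p-value under 0.05. In AM cells 22 of the 24 filled points lie below 0, including 6 tight junction genes and 4 butyrophilins.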

How the data were processed

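The authors aligned 100-base single end reads to hg38 with STAR 2.5.3a and assembled transcripts with StringTie 1.3.3 (the study's methods). The submitters' processing notes also name featureCounts 1.5.3. Its strand setting and the annotation are not given in the sources used here. The deposited values are raw counts per gene symbol in 6 libraries of 21222201 to 35311945 counts. Replicates were not pooled, and 0 columns were left out.

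From these counts, TMM factors and a quasi-likelihood fit without covariates were computed over all libraries with edgeR 4.0.16 in R 4.3.3 (limma 3.58.1) after filterByExpr. Tests were two-sided, with an adjusted p-value (Benjamini-Hochberg over 14672 genes) under 0.05 as the threshold. A standard error is the log2 difference divided by the square root of F. For 2 against 2 libraries the smallest exact permutation p would be 0.333. The members and lists were chosen with earlier results of these data known. Partner genes were named as the closest relatives and up to 4 called genes of lowest p per list and comparison, patterns by the 2 nearest genes per member and 5 for their mean, and neighbours and butyrophilins by position. RefSeq synonyms matched FAM189A1 to ENTREP2, and the 7 members all had a promoter. Protein sequences were not used here. Some genes that these rules name are not reported here.

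Alternatives were other scalings, filters, tests (DESeq2 1.42.0, likelihood ratio), fits to 2 groups, a replicate block and each library left out. In simulated counts with 200 changed genes among 14453, 170 were recovered against the midpoint (74 of 100 at a log2 change of 1, 96 of 100 at 2). There were 21 false calls, a larger share of the calls made than the threshold of 0.05 for adjusted p-values. In the data, 6WP libraries varied more than those of WT and AM (median SD of log2 CPM 0.196, 0.0854 and 0.0911). Recovery and false calls under such unequal spread were not assessed separately.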

Additional observations from a re-analysis of the deposited data

How the results depend on the processing

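The sign of each log2 difference of the 7 genes was the same as reported in all 413 values recomputed under the alternatives. Counts of calls moved more. The likelihood ratio test gave 2633 genes against the midpoint (1481 before), 1492 in 6WP against WT cells (440 before), 2 members above the midpoint, 13 partner genes in 6WP against WT cells (3 before) and, among the other genes lower in AM cells, 247 above and 27 below the midpoint (112 and 12 before). With no filter beyond 1 count, 894 genes and 10 partner genes differed in 6WP against WT cells, with 177 and 20 of the genes lower in AM cells above and below the midpoint. The Wald test of DESeq2 gave 1114 genes and 11 partner genes in 6WP against WT cells, and placed 19 of the other genes lower in AM cells below the midpoint. With DESeq2's size factors or library size only, 0 members were called above the midpoint, since PROS1 reached adjusted p-values of 0.0537 and 0.0551. Fits to the 2 groups compared called 96 genes in 6WP against WT, 1309 in 6WP against AM (3131 before) and 6620 in AM against WT cells (2593 before), with 7 partner genes in 6WP against AM (16 before) and 45 in AM against WT cells (24 before). The cause of these shifts was not tested.

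Leaving out each library in turn gave 54 to 5390 genes against the midpoint, 0 to 3870 in 6WP against WT, 116 to 6807 in 6WP against AM and 67 to 6654 in AM against WT cells. Partner genes called ranged from 2 to 48 in AM against WT, 0 to 28 in 6WP against WT and 0 to 38 in 6WP against AM cells. Members above the midpoint numbered 0 to 3 and below it 0 to 1. The other genes lower in AM cells numbered 48 to 1098, with 2 to 301 above and 0 to 65 below the midpoint. Counts were lowest without a WT or AM library and highest without a 6WP library, and 6WP libraries differed most between replicates (median SD of log2 CPM 0.196, against 0.0854 for WT and 0.0911 for AM).

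The labels number the replicates in each group but do not say that a number marks a shared batch, and deviations of same-numbered libraries had correlations across genes of 0.0395, 0.0873 and -0.0206. With the replicate block, 1399 genes were called against the midpoint, 1 member was above it and PROS1 had an adjusted p-value of 0.0439 (edgeR).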
